A study of Danio rerio with 19 samples.

Results

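The regions described here carried an H3K9me3 peak in the old-fish night list and in the young-fish day list, and in none of the 4 other lists of the series. They were selected on the peak calls themselves. Peaks of all 6 deposited lists that overlapped by 1 bp or more were merged, and a merged region was kept if it held peaks of the 20 M ZT16 and 4 M ZT4 lists only, lay on chromosomes 1 to 25 outside chromosome 4 from 25 Mb onward, and held no single peak of 500 bp or longer. This gave 11192 regions of 90523 in the whole series. They are called the 2-list regions below.

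The study asked how H3K9me3 in the zebrafish brain changes with age and with time of day. Brains of wild-type SAT zebrafish were taken at 20 months (20 M), 12 months (12 M) and 4 months (4 M) of age, at ZT16 in the dark phase and at ZT4 in the light phase, after entrainment to an even light:dark cycle. Each of the 6 groups had 3 H3K9me3 ChIP-seq libraries, from which 1 peak list was deposited, and a GFP antibody library was listed that is not used here. With 1 list per group there is no value per library, so nothing below has a replicate error and no difference between groups was tested.

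H3K9me3, the trimethyl mark on lysine 9 of histone H3, is written by SUV39H and SETDB1 methyltransferases and bound by HP1 proteins. It marks constitutive heterochromatin at repeats and pericentromeres, and also facultative heterochromatin that silences genes in a regulated way. In mammals and fungi, clock proteins of the Period and Frequency complexes have been tied to rhythmic H3K9 methylation at clock loci.

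The lists differed widely in size. At 4 M the ZT4 list held 70317 peaks and the ZT16 list 55874. At 12 M the ZT4 list held 29 peaks and the ZT16 list 8755, and at 20 M the ZT4 list held 19177 and the ZT16 list 87948. The 2-list regions therefore pair the 2 longest lists of the series, and list size and group cannot be told apart. A peak missing from a list means that the caller did not report it there, not that the mark was absent. The methods name one intended sequencing depth, and the number of mapped reads behind each list was not given in the sources used here. When the 20 M ZT16 and 4 M ZT4 lists were cut to their highest-scoring peaks, as many as the 4 M ZT16 list holds, 2601 regions met the rule, all of them among the 11192, which is 23.2% of these.

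The 2-list regions formed the third most frequent combination of lists. Among the 80950 regions on the same chromosomes with no peak of 500 bp or longer, 13.8% were listed at 20 M ZT16 and 4 M ZT4 only. More frequent were regions that also had a 4 M ZT16 peak (34416, called the 3-list regions below) and regions found at 20 M ZT16 alone (17359). Regions found at 4 M ZT4 alone numbered 1203. The 2-list regions made up 14.1% of the 79330 regions listed at 20 M ZT16 (Wilson 95% interval 13.9 to 14.4%) and 17.7% of the 63075 listed at 4 M ZT4 (17.4 to 18.0%). These intervals cover counting error only, since neighbouring regions are not independent draws. At 4 M ZT16 and 20 M ZT4 only, the lists of the opposite times at the same ages, 6 regions were listed. The 20 M ZT16 list covered 79330 of the 80950 regions, so few could fall outside it. The count of 6 therefore does not show a direction.

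The regions lay in the lower part of both lists by score. Each peak carries a whole-number score from the authors' peak caller, and because nothing says that scores of different lists are comparable they were turned into percentiles within their own list. The median score percentile was 31.9 in the 20 M ZT16 list (quartiles 25.9 and 39.3) and 16.3 in the 4 M ZT4 list (quartiles 9.87 and 25.5). For the 2601 regions that met the rule after both lists were cut to the size of the 4 M ZT16 list, the medians within the full lists were 44.0 for 20 M ZT16, against 31.5 for 4 M ZT4. The cut removes the lowest-scoring peaks, so higher medians follow from it. The scores themselves had medians of 128 at 20 M ZT16 and 67 at 4 M ZT4. For 10589 regions (94.6%) the percentile was higher in the 20 M ZT16 list, against 79.6% of the 3-list regions. The 20 M ZT16 list is the longer one and holds 17359 regions of its own, mostly at low percentiles, so percentiles of the 2 lists do not rest on the same set of regions. The 3-list regions stood higher, at median percentiles of 60.3 in the 20 M ZT16 list and 49.8 in the 4 M ZT4 list, while regions found at 20 M ZT16 alone had a median of 12.6 and those at 4 M ZT4 alone a median of 1.86. The scores belong to the calls that chose the regions, so these values are a description.

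The combination of lists changed with the score, here taken in bands of 10 percentile points. In the 20 M ZT16 list the 2-list regions made up 2.99% of the lowest band, 9.56% of the next, 46.4% of the band from 20 to 30 and 48.4% of that from 30 to 40. Above these their share was 22.4% from 40 to 50, 6.83% from 50 to 60, 1.34% from 60 to 70 and 0.142% from 70 to 80, with none above 80. In the 4 M ZT4 list they made up 58.8% of the lowest band, 63.5% of the band from 10 to 20 (4013 of 6324) and 36.9% of that from 20 to 30. Of the 4 M ZT4 regions between percentiles 60 and 70, 0.362% were 2-list regions, and above 80 there were none. The 2-list regions thus filled a band that lay below most 3-list regions in both lists and, in the 20 M ZT16 list, above most regions found there alone.

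**Figure D1:**
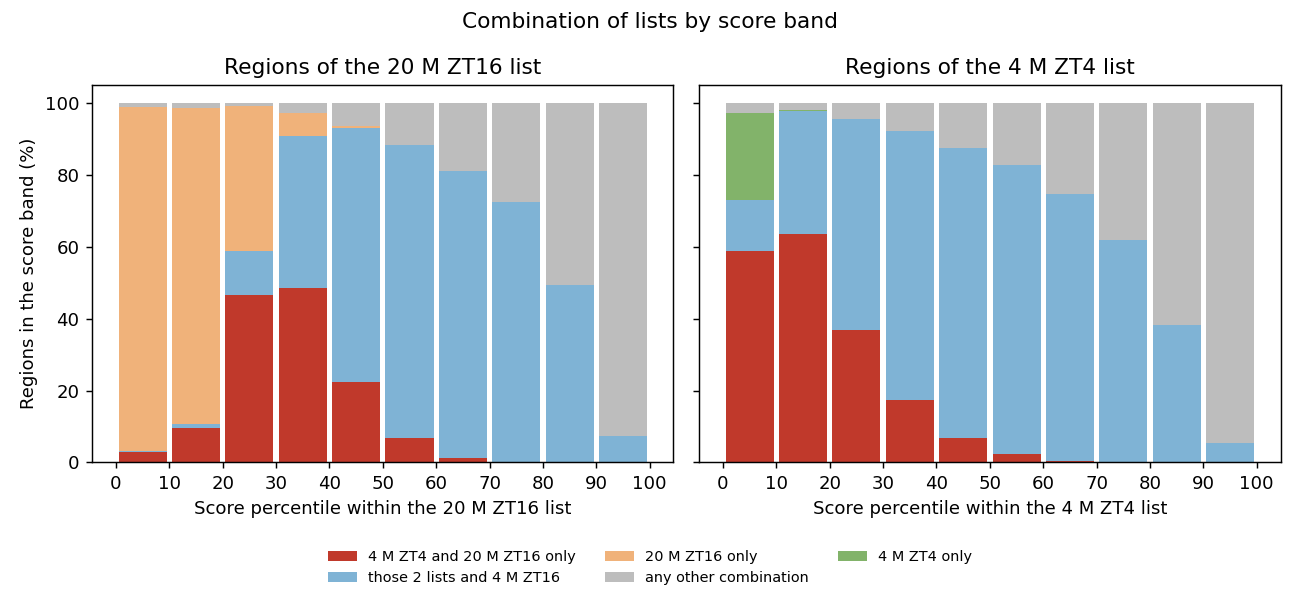
Share of regions (%, vertical axis) that had each combination of lists, in bands of 10 points of the score percentile (horizontal axis) of the 20 M ZT16 list (left) and the 4 M ZT4 list (right). Regions listed only at 4 M ZT4 and 20 M ZT16 (red) reach 48.4% in the band from 30 to 40 of the 20 M ZT16 list and 63.5% in the band from 10 to 20 of the 4 M ZT4 list.

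The regions nearest to the missing list had overlapping score positions but longer peaks. A 2-list region has no value at 4 M ZT16, so the closest neighbours across that limit are the 3-list regions with the weakest 4 M ZT16 peaks. The 4261 in the lowest 10 percentile points of the 4 M ZT16 list had scores there of 10 to 46. Their median percentiles were 38.4 in the 20 M ZT16 list and 21.4 in the 4 M ZT4 list, against 31.9 and 16.3 for the 2-list regions. The quartiles overlapped, at 31.9 to 46.3 for these 3-list regions in the 20 M ZT16 list and 25.9 to 39.3 for the 2-list regions. The median peak of these 3-list regions was 71 bp in the 20 M ZT16 list and 70 bp in the 4 M ZT4 list. For the 2-list regions it was 51 bp in both lists. With each further band of the 4 M ZT16 score the 3-list median percentiles were higher in both lists, up to 87.4 at 20 M ZT16 and 83.0 at 4 M ZT4. Peak length did not follow this order. In the next band the median peak was shorter, at 63 bp in the 20 M ZT16 list and 61 bp in the 4 M ZT4 list. It was 84 bp in both lists in the highest band.

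Across the 2-list regions both scores moved together. Spearman's rho between the 20 M ZT16 and 4 M ZT4 scores was 0.683 and Pearson's r 0.735 over 11192 regions, against 0.808 and 0.813 over the 34416 3-list regions. The points share the genome sequence and the peak caller, and the range of scores is limited by the rule. Most points formed 1 cloud. A small group at its low end, with no empty gap between, had scores under 50 at 20 M ZT16 and under 30 at 4 M ZT4, limits set after the values were seen. It held 366 regions (3.27%), on all 25 chromosomes, with median scores of 21 at 20 M ZT16, against 16 at 4 M ZT4. The remaining 10826 had median scores of 130 at 20 M ZT16 and 68 at 4 M ZT4.

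**Figure D2:**
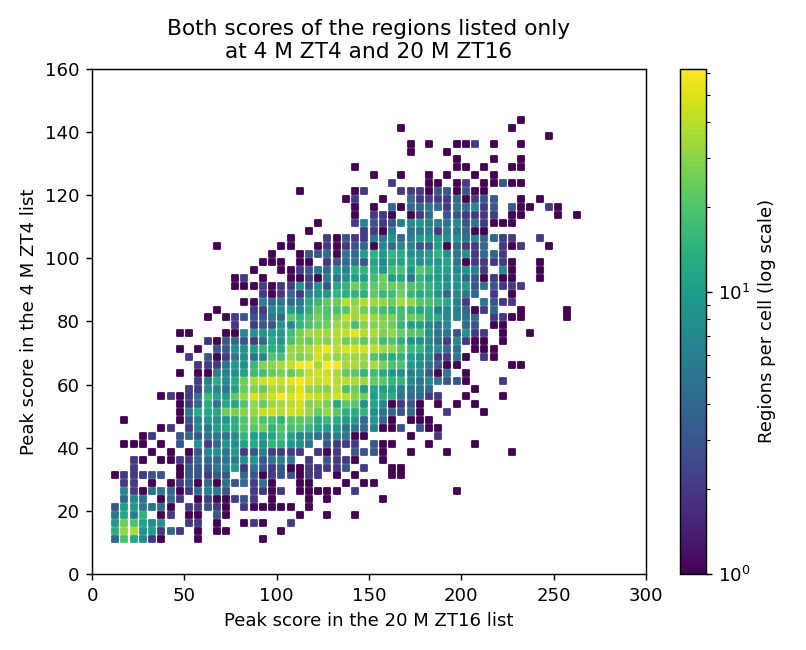
Peak score in the 20 M ZT16 list (horizontal axis) against peak score in the 4 M ZT4 list (vertical axis) for the 11192 regions listed only in these lists, coloured by the number of regions per cell on a log scale. The scores move together (Spearman's rho 0.683), and 366 regions lie at low scores in both lists, with no empty gap to the rest.

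The strongest of the regions were longer than most 2-list regions and lay on different chromosomes. Coordinates are those of GRCz10, counted from 1, and no genome of that build was used here, so no sequence or repeat class is given. The region with the highest lower percentile, that is the smaller of its percentiles in the 2 lists, was chr22:19815895-19815955. It was 61 bp long and had a score of 249 at 20 M ZT16 and of 139 at 4 M ZT4, at percentiles 71.8 and 70.4. Next came chr1:13431325-13431391, with scores of 231 at 20 M ZT16 and 137 at 4 M ZT4, and chr15:9444461-9444526, with 231 and 144. The region chr6:58815141-58815221 had scores of 228 at 20 M ZT16 and 141 at 4 M ZT4, and chr19:7956002-7956065 had 230 and 130. These 5 regions were 61 to 81 bp long, above the upper length quartile of 59 bp of the 2-list regions, and lay on 5 chromosomes. None was within 3 kb of a locus with diurnal or age-related expression in the study. Only 1.76% of all 2-list regions and 1.95% of all 80950 regions were, so none among 5 says little.

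The 2-list regions were short. Their median length was 54 bp (quartiles 50 and 59), with a range of 46 to 623 bp, and the reads were 50 bp long. The shortest peak was 46 bp in the 4 M ZT4 list and 39 bp in the 20 M ZT16 list. A 2-list region thus cannot be shorter than 46 bp, while one at 20 M ZT16 alone can. Regions of 46 to 50 bp numbered 3290 (29.4%) and those of 51 to 60 bp 5394 (48.2%). A length of 60 bp or more was reached by 24.4% of the 2-list regions, against 87.8% of the 3-list regions, 50.3% of those found at 20 M ZT16 alone and 79.4% of those at 4 M ZT4 alone. The quartiles were 64 and 82 bp for the 3-list regions, 43 and 142 bp for those at 20 M ZT16 alone and 66 and 173.5 bp for those at 4 M ZT4 alone. From the 5th to the 95th percentile the lengths ran from 47 to 168 bp in 2-list regions and from 56 to 184 bp in 3-list regions. A 3-list region joins 3 peaks, which by itself lengthens it. The peaks of single lists differed in the same direction: the median peak was 51 bp in both lists for the 2-list regions, and for the 3-list regions it was 70 bp in the 20 M ZT16 list and 69 bp in the 4 M ZT4 list.

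Length varied with score, so peaks were also set side by side within score bands. In the band from 30 to 40 of the 20 M ZT16 list the median peak was 51 bp in 2-list regions and 61 bp in 3-list regions. In the band from 10 to 20 of the 4 M ZT4 list it was 49 bp in 2-list regions and 64 bp in 3-list regions, and from 20 to 30 it was 52 bp against 60 bp. The 2-list peaks were thus the shorter ones at like score rank in those bands. The lowest band of the 20 M ZT16 list went the other way, at 153 bp in 217 2-list regions and 78 bp in 14 3-list regions. In the other bands of both lists that held 2-list regions, their median peak was the shorter. Within the 2-list regions the shortest were not the strongest. Regions of 46 to 50 bp had median percentiles of 26.9 at 20 M ZT16 and 11.8 at 4 M ZT4, against 36.4 and 21.4 for those of 51 to 60 bp.

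**Figure D3:**
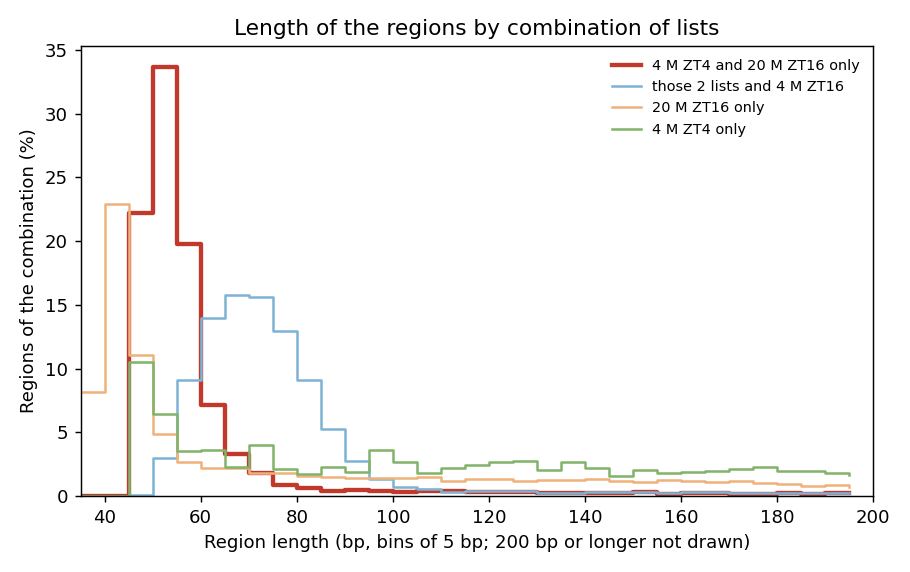
Share of regions (%, vertical axis) by region length (bp, horizontal axis, bins of 5 bp) for 4 combinations of lists. Regions listed only at 4 M ZT4 and 20 M ZT16 (thick red line) peak near their median of 54 bp, and 3-list regions (blue) near 72 bp. Regions of 200 bp or longer are not drawn and made up 3.57% of the 2-list and 4.23% of the 3-list regions.

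In most regions the peaks of the 2 lists overlapped closely, as they did in 3-list regions. Of the 11192 regions, 11178 held exactly 1 peak from each list. Among these the centres of both peaks lay within 5 bp of each other in 9743 (87.2%), with a median offset of 1.5 bp. The 20 M ZT16 peak was the longer in 5165 (46.2%), the 4 M ZT4 peak in 5081 (45.5%), and both were of equal length in 932. One peak lay inside the other in 7017 (62.8%), and 193 had the same start and end. A minority joined peaks that touched only in part: centres were over 50 bp apart in 335 regions (3.0%), and 10664 (95.4%) met a reciprocal overlap of 50%. In 34225 3-list regions with 1 peak from each of these 2 lists the median offset was also 1.5 bp. There 91.9% of centres lay within 5 bp and 98.0% met the reciprocal overlap.

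Wide regions made up the long tail of the lengths, with limits set after the lengths were seen. Of the 2-list regions, 9884 (88.3%) were up to 75 bp long and 674 (6.02%) were 150 bp or longer. The wide 2-list regions had lower scores, with medians of 68 at 20 M ZT16 and 33 at 4 M ZT4, against 132 and 68 for the narrow ones. They also lay closer to other regions of the series, but not to 4 M ZT16 peaks. The nearest 4 M ZT16 peak was at a median of 9113 bp from wide regions and 7537 bp from narrow ones. The nearest region of any kind was at a median of 1876 bp from wide regions and 4506 bp from narrow ones, and 36.4% of wide regions (245 of 674) had one within 1 kb, against 17.5% of narrow regions (1733 of 9884). Of the 366 regions low in both scores, 262 (71.6%) were 150 bp or longer and 49.2% had another region within 1 kb (44.1 to 54.3%). The longest were chr6:20227399-20228021, of 623 bp with scores of 33 at 20 M ZT16 and 12 at 4 M ZT4, chr25:26192388-26192959, of 572 bp with 21 and 23, and chr5:57961651-57962211, of 561 bp with 18 and 19.

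The length limit left out few regions, and the limit on chromosome 4 left out more than it kept there. The longest peak of a 2-list region was 495 bp, in chr17:7084537-7085033, with scores of 34 at 20 M ZT16, against 27 at 4 M ZT4. The first region beyond the limit was chr2:53913690-53914193, with a peak of 504 bp and scores of 115 at 20 M ZT16 and 77 at 4 M ZT4. In all, 50 regions had the same combination of lists and a peak of 500 bp or longer. Another 597 were left out on chromosome 4 from 25 Mb onward, where 176 were kept before it, and 301 on unplaced scaffolds. On chromosome 4 the last region kept was at 24972412 to 24972459, with scores of 64 at 20 M ZT16 and 59 at 4 M ZT4, and the first left out was at 25014712 to 25014766, with scores of 141 and 70.

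The regions were spread over every chromosome at a like density. Their number ranged from 176 on the part of chromosome 4 that was kept to 640 on chromosome 5. Per Mb there were 7.04 on that part of chromosome 4 and 9.83 on chromosome 24, with 8.69 over all chromosomes. The share of a chromosome's 20 M ZT16 regions that were 2-list regions lay between 13.0% on chromosome 11 and 15.4% on chromosome 24. The share of its 4 M ZT4 regions lay between 16.4% on chromosome 11 and 19.1% on chromosome 24. Median length was between 53 and 54 bp on all 25 chromosomes. Along the chromosomes other than chromosome 4, in 10 equal parts from start to end, the share was 13.2 to 15.0% of 20 M ZT16 regions and 16.6 to 18.7% of 4 M ZT4 regions. Neither the ends nor the middle stood out by more than these few points.

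**Figure D4:**
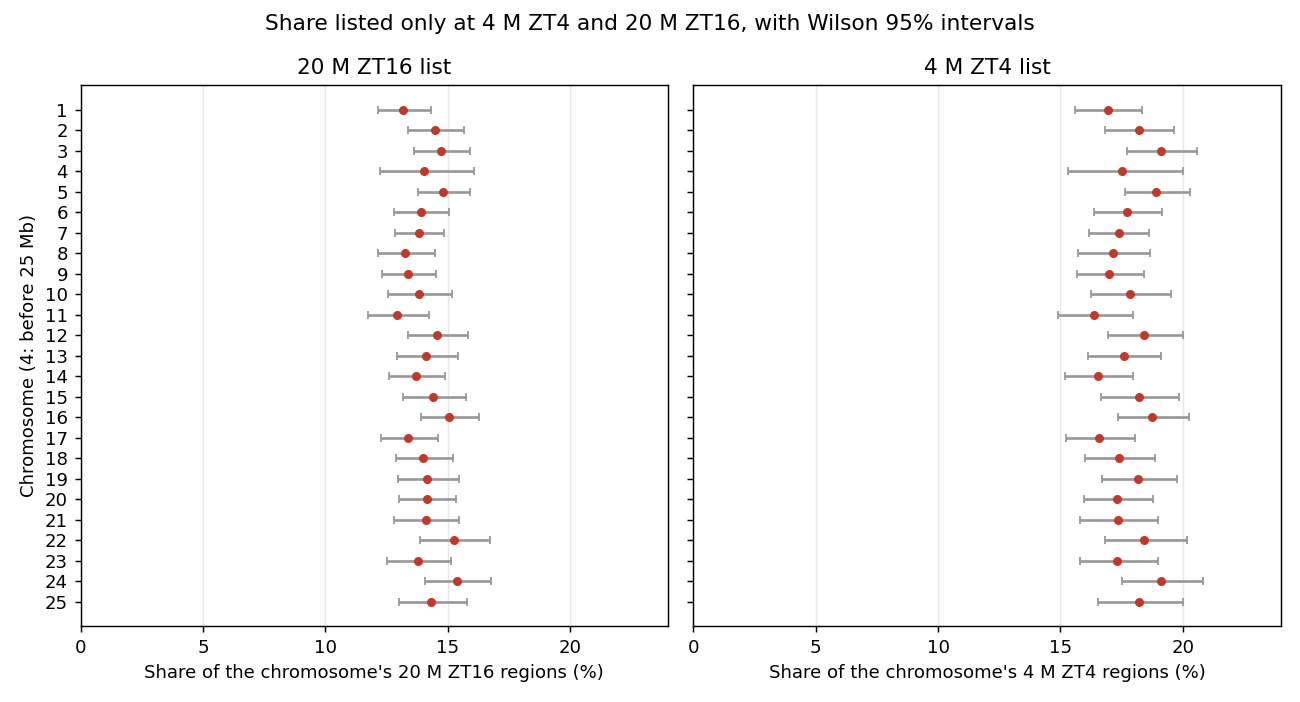
Share of each chromosome's 20 M ZT16 regions (left, %) and 4 M ZT4 regions (right, %) that were listed only at 4 M ZT4 and 20 M ZT16, with Wilson 95% intervals as bars, for chromosomes 1 to 25 down the page. Shares run from 13.0 to 15.4% at 20 M ZT16 and from 16.4 to 19.1% at 4 M ZT4.

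The 2-list regions were mostly single. Among all regions in order along a chromosome, 8172 of the 11192 (73.0%) had no other 2-list region as a neighbour, 1179 runs held 2 in a row, 164 held 3, 31 held 4 and 8 held 5. The longest run held 6, over 109 kb from chr18:19744818-19744872 to chr18:19853910-19853958, with scores of 67 to 142 at 20 M ZT16 and 60 to 97 at 4 M ZT4. Of all neighbours of 2-list regions 14.7% were themselves 2-list regions, a combination that made up 13.5% of the regions from which neighbours were taken. For 3-list regions the figures were 43.4% of neighbours and 40.7% of regions, and for those at 20 M ZT16 alone 19.4% and 21.6%. The combination of a neighbour was thus close to the make-up of the series as a whole.

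Spacing within a combination was wider the fewer regions it had. The nearest other 2-list region lay at a median of 36947.5 bp (quartiles 13943 and 77801.5), and the nearest region of any other combination at 5312 bp (quartiles 1686 and 12391). The distance to the nearest region of the same combination was 10972 bp for the 34416 3-list regions. It was 16790 bp for the 17359 at 20 M ZT16 alone and 166116 bp for the 1203 at 4 M ZT4 alone. A region of any kind lay within 1 kb of 2132 2-list regions (19.0%), against 17.7% of 3-list regions, 30.2% of those at 20 M ZT16 alone and 26.8% of those at 4 M ZT4 alone. Of the 2-list regions, 46 (0.411%) had no other region within 50 kb.

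The lists in which the regions were missing had peaks at distances that differed with the list. The nearest 4 M ZT16 peak was at a median of 7663 bp and at no less than 98 bp, and 1398 regions (12.5%) had one within 1 kb. The nearest 20 M ZT4 peak was at a median of 28130.5 bp and at no less than 179 bp, with 495 regions (4.42%) within 1 kb. For 12 M ZT16 the median was 83186.5 bp, with 235 regions (2.10%) within 1 kb. The 12 M ZT4 list held 29 peaks, and 8391 of the 2-list regions lay on chromosomes where it had none. The 3-list regions were at like distances from the lists they lack, with medians of 27174 bp to a 20 M ZT4 peak and 85626 bp to a 12 M ZT16 peak.

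**Figure D5:**
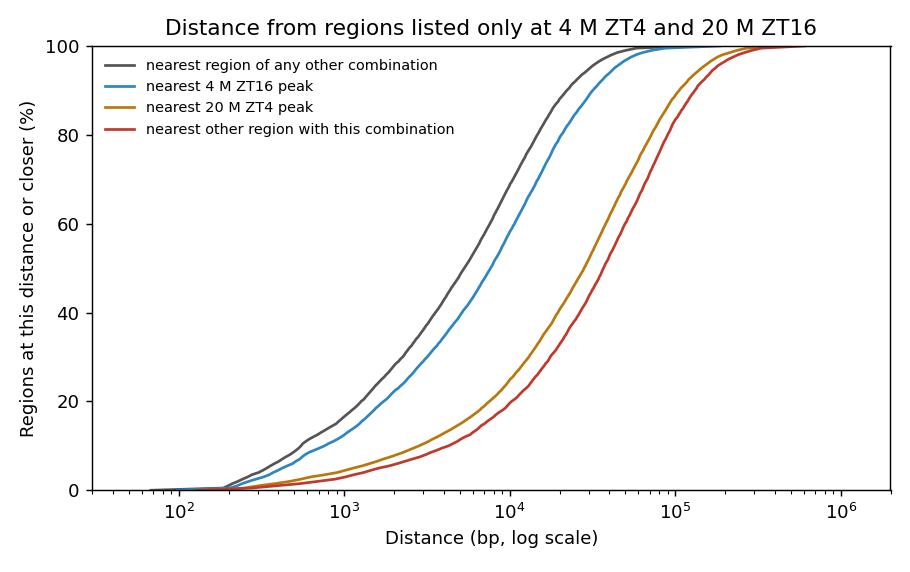
Share of the 2-list regions (%, vertical axis) that had a neighbour at the given distance or closer (bp, horizontal axis, log scale). The nearest region of any other combination and the nearest 4 M ZT16 peak lie at medians of 5312 and 7663 bp, the nearest 20 M ZT4 peak and the nearest other 2-list region at 28130.5 and 36947.5 bp.

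A few places held several 2-list regions. Of 12893 windows of 100 kb, 5592 held none, the median was 1 and the highest number was 9. The 9 lay between 52727138 and 52786299 on chromosome 5, were 158 to 312 bp long among 24 regions in all, and had low scores, from 12 to 38 at 20 M ZT16 and from 11 to 17 at 4 M ZT4. A window on chromosome 17 held 8 of 30 regions, between 39955095 and 39997855, of 96 to 365 bp, with scores of 16 to 37 at 20 M ZT16 and 12 to 19 at 4 M ZT4. Another on chromosome 7 held 8 of 15 regions, between 52724125 and 52764285, of 118 to 378 bp, with scores of 17 to 30 at 20 M ZT16 and 13 to 21 at 4 M ZT4. All 3 clusters had low scores in both lists and lengths above the 75 bp limit of the narrow regions. In windows of 1 Mb the median was 8, and the highest number was 26, of 88 regions in all, between 45000001 and 46000000 on chromosome 16.

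Regions were also placed against the loci whose RNA the study listed as diurnal or as different between ages, each with 3 kb on either side. Of these, 904 lay on the chromosomes used here, 351 annotated and 553 unannotated. A locus is the interval that the study listed for its assembled transcripts, and some intervals carry several gene names. A gene name below stands for that interval, which can reach beyond the gene itself. The 2-list regions lay near such a locus in 197 of 11192 cases (1.76%, Wilson interval 1.53 to 2.02%), against 1.95% of all 80950 regions (1578), and 2.03% of 3-list regions. A 2-list region was found at 149 loci, which is 16.5% of the 904, among them 75 of the annotated ones (21.4%) and 74 of the unannotated ones (13.4%). Per Mb the order was the other way, with 7.59 at annotated and 8.80 at unannotated loci, and of their 4 M ZT4 regions 15.4% and 16.1% were 2-list regions. Density was 8.12 2-list regions per Mb of all these loci and their flanks, against 8.69 per Mb of all chromosomes. Of the 4 M ZT4 regions near the loci 15.7% were 2-list regions, against 17.7% of all 4 M ZT4 regions. The 2-list regions were thus no denser at these loci than elsewhere.

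Between the expression lists the share of loci with a 2-list region ran from 12.5 to 20.1%. Among loci diurnal at 4 M, 20.1% had a 2-list region (47 of 234, Wilson interval 15.5 to 25.7%), among those diurnal at 12 M 12.5% (9.35 to 16.5%) and among those diurnal at 20 M 17.7% (12.8 to 23.9%). Of the loci that differed between ages, 18.7% of those at ZT16 (64 of 343, interval 14.9 to 23.1%) and 12.5% of those at ZT4 (25 of 200, interval 8.61 to 17.8%) had one. A longer locus has more room for a region. Per Mb the values were 7.36 at 4 M, 7.60 at 12 M and 7.58 at 20 M for diurnal loci, and 7.89 at ZT16 and 6.25 at ZT4 for age-related loci.

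Clock genes had 2-list regions at 8 of 20 loci (40%, interval 21.9 to 61.3%), against 21.4% of annotated loci and 16.5% of all loci. At these loci lay 14 2-list regions among 84 regions of the 4 M ZT4 list, which is 16.7%, against 17.7% of all 4 M ZT4 regions. Their density was 9.98 per Mb, against 8.69 per Mb of all chromosomes. Of these 14 regions, 5 belonged to the single locus nr1d4b, spread from 2050005 to 2228054 on chromosome 11. The 16.7% share of 4 M ZT4 regions and the density at clock loci thus rest in good part on 1 long locus. In the 8 of 20 loci it counts as 1. By the lower of its 2 percentiles, the first of the clock regions was inside per2, the light-induced repressor of the clock, at chr2:48514714-48514770. It had a score of 179 at 20 M ZT16 and of 106 at 4 M ZT4. A weaker one, 1449 bp outside per2, at chr2:48453876-48453922, had scores of 98 at 20 M ZT16, against 46 at 4 M ZT4. The activator clocka held 2, with scores of 195 and 133 at 20 M ZT16 and of 98 and 67 at 4 M ZT4.

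The nuclear receptor gene nr1d4b is of the Rev-erb family, which represses clock genes in the negative arm. Its listed interval, with flanks, had 5 of the regions among 18 listed at 20 M ZT16 and 14 at 4 M ZT4. Their scores were 21, 73, 197, 171 and 115 at 20 M ZT16 and 24, 34, 92, 108 and 97 at 4 M ZT4, in order along chromosome 11. The PAR bZIP factors tefb and hlfa, which drive clock output through D-box elements, had 1 each, in tefb with scores of 137 at 20 M ZT16 and 91 at 4 M ZT4, and 125 bp outside hlfa with scores of 139 and 83. The others were bhlhe41, nr1d2a and nfil3-2, which encode transcriptional repressors. The loci without one included arntl2, cry1aa, cry2, nr1d1, per1b and per3.

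Muscle genes had one at 11 of 56 loci (19.6%, interval 11.3 to 31.8%), against 21.4% of annotated loci. The density of 2-list regions there was 7.77 per Mb, against 7.59 at annotated loci and 8.69 per Mb of all chromosomes. Of the 86 regions of the 4 M ZT4 list at muscle loci 16 (18.6%) were 2-list regions. That share was 15.4% at annotated loci and 17.7% of all 4 M ZT4 regions. The gene tnnc2, troponin C of fast muscle, held 2, with scores of 92 and 181 at 20 M ZT16 and of 48 and 96 at 4 M ZT4. The gene scn4ab, the sodium channel of skeletal muscle, held 3, with scores of 78, 102 and 141 at 20 M ZT16 and 44, 58 and 95 at 4 M ZT4. The muscle creatine kinase gene ckma held 1, with scores of 180 at 20 M ZT16, against 95 at 4 M ZT4. The fast troponin I gene tnni2a.1 held 1 wide region, 212 bp long, with scores of 217 at 20 M ZT16, against 94 at 4 M ZT4. The AMP deaminase gene ampd1 held 2, of which the stronger had 151 at 20 M ZT16, against 88 at 4 M ZT4. The Z-disc gene ldb3b had 1, and igfn1.1, a muscle gene in mammals, had 2 of the 18 regions in the 20 M ZT16 list and of the 15 in the 4 M ZT4 list. Other muscle loci with one were actn3b, ldb3a, srl and trim55b.

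The remaining lists were small, and their intervals wide. Collagen and matrix genes had one at 5 of 10 loci (50%, interval 23.7 to 76.3%), against 21.4% of annotated loci, and 18.9% of the 4 M ZT4 regions there were 2-list regions, against 17.7% of all. These loci were col11a1b, col1a1b, col1a2, hapln1a and postnb. The fibrillar collagen gene col11a1b held 3, with scores of 115, 125 and 80 at 20 M ZT16 and 59, 65 and 50 at 4 M ZT4. Heat shock genes had one at 3 of 8 loci (hsc70, hspa4a and hspb6), glycolysis genes at 1 of 11 (pdk2b, a pyruvate dehydrogenase kinase), keratin genes at 1 of 8 (krt17), chromatin genes at 1 of 6 (hells, a remodeller tied to DNA methylation) and neuronal genes at 1 of 15 (slc17a7a, a vesicular glutamate transporter). None of the 5 photoreceptor loci had one, which with 1 region listed there at each of 20 M ZT16 and 4 M ZT4 says little. The genes slc4a1a, an anion exchanger of red cells, and fbxo32, a ubiquitin ligase of muscle wasting, had none. Of regions with other combinations slc4a1a had 3 in each of the 20 M ZT16 and 4 M ZT4 lists and fbxo32 had 2 in each.

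By the lower of its percentiles, the strongest region near an annotated locus lay in pkp3a, a desmosome gene, at chr25:22061792-22061854, with scores of 207 at 20 M ZT16, against 119 at 4 M ZT4. The pyruvate carboxylase gene pcxb held the most, 6 among 33 regions at 20 M ZT16 and 31 at 4 M ZT4. Their scores were 98 to 222 at 20 M ZT16 and 63 to 102 at 4 M ZT4. These 6 were spread from 60182276 to 60523098 on chromosome 7, and a longer locus has more room for a region. Of all regions, 14.1% of those at 20 M ZT16 and 17.7% of those at 4 M ZT4 were 2-list regions. The viral RNA sensor gene ifih1 had 3, of which the strongest had 165 at 20 M ZT16, against 94 at 4 M ZT4. The transferrin gene tfa held 2 and no other region of either list, with scores of 154 and 151 at 20 M ZT16 and 86 and 93 at 4 M ZT4. In cd22, a lectin-like receptor gene of B cells in mammals, the region had a score of 167 at 20 M ZT16, against 100 at 4 M ZT4. In ddit4, an inhibitor of mTORC1 signalling, they were 167 and 85, and in slc25a4, a mitochondrial ADP/ATP carrier, 115 and 87. One lay 422 bp outside the locus of the Notch target her4.2, with 172 at 20 M ZT16 and 90 at 4 M ZT4, and one 611 bp outside hells, with 178 and 87. The angiogenic factor gene aggf1 held 1, with 138 at 20 M ZT16 and 87 at 4 M ZT4, and the Crumbs polarity gene crb2b held 1, with 132 and 82. One lay in si:ch211-225b11.1, with 159 at 20 M ZT16 and 86 at 4 M ZT4, and one 2385 bp outside si:ch211-132b12.7, with 135 and 85.

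Most loci had a single 2-list region. Of the 75 annotated loci with one, 60 had 1, 10 had 2 and 5 had 3 or more. At 52 a region lay inside the locus and at 23 in the flanks only. At 15 of them every 4 M ZT4 region was a 2-list region, but apart from tfa, with 2, each of these loci had a single 4 M ZT4 region. Among unannotated loci XLOC_067663 on chromosome 7 had the most, 5 among 47 regions at 20 M ZT16 and 40 at 4 M ZT4, and XLOC_016937 on chromosome 15 had 4 among 6 in each list. They were picked as the highest counts of 553 unannotated loci. At all unannotated loci 12.9% of the 20 M ZT16 regions and 16.1% of the 4 M ZT4 regions were 2-list regions.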

How the data were processed

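H3K9me3 was measured by ChIP-seq in zebrafish brain, with 3 libraries per group. Reads of 50 bp were aligned by the authors with Bowtie2 against GRCz10. MACS2 (2.2.1 in the submitters' processing notes) was run at an FDR of 0.01, and the authors deposited 1 BED list per triplicate, with a whole-number score per peak. The lists name no scale for the score, and the control library of the calls is not given in the sources used here.

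Overlapping peaks were merged with peaks that only touch kept apart. A score percentile is the mid-rank among all peaks of a list, and a region took its highest peak per list. The merging code found all planted overlaps in simulated lists and gave the same number of regions as bedtools 2.31.1. Tables and plots were made in Python 3.11.15 with pandas 2.3.3, numpy 2.4.6, matplotlib 3.10.9 and scipy 1.17.1. Members and gene lists were chosen with earlier results of these data known. Genes named are the 25 annotated loci with the strongest region by lower percentile, members of 10 gene lists, slc4a1a and fbxo32. Regions named are the 5 strongest, the 3 longest, those next to a limit and the densest 100-kb windows. The longest run, loci with most regions and the width and score classes were added after values were seen. The alternatives were other score thresholds, merging, overlap, list sizes, chromosomes, lengths and flanks. The planned sequence features were not analysed here, as no GRCz10 sequence was used.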

Additional observations from a re-analysis of the deposited data

How the results depend on the processing

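Of 59 values of the 8 summary results under alternatives, 36 stayed within their interval (a count within 1.5 times) and 23 moved. List size mattered most. With both lists cut to the size of the 4 M ZT16 list, 2601 regions met the rule, making 5.07% of 20 M ZT16 and 5.06% of 4 M ZT4 regions, with median percentiles of 44.0 and 31.5, a length of 57 bp and 6920 bp to the nearest other combination. The higher percentiles follow from the cut, which removes the lowest-scoring peaks. A score of at least 20 gave 14.9% of 20 M ZT16 regions and a distance of 5851 bp. A score of at least 30 gave 15.96% and 18.3%, a 20 M ZT16 percentile of 32.5 and 6116 bp. Merging peaks within 1 kb gave 13.8% and 16.8%, and 7088 bp. A reciprocal overlap of 50% gave 13.4% and 16.9%, and a percentile of 32.5. With no limit on length the shares were 13.8% and 17.4%. Near loci lay 1.20% with no flank and 2.78% with 10 kb. Leaving out chromosome 4 moved none of the 8 results. Leaving out the 12 M lists, chosen after seeing the data, gave 11193 regions.

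No paired analysis was possible because each group has a single list made from its triplicate, which also leaves no library to leave out. The number of mapped reads per list was not known, so differences in calling between lists and in the mark cannot be told apart.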
